A study of Mus musculus with 2 samples.

Results

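The translation initiation and elongation factors are the proteins that bring ribosomes to mRNA, place them on the start codon and move them along the coding sequence. Their genes were taken from the count table as protein-coding rows named Eif or Eef followed by a number, without the Eif2ak kinases, and with at least 10 reads over both libraries. Of 64 such rows 63 met the read minimum, among 17709 genes in all that did so. The remaining row, Eif4e1b, had 0 reads in both libraries.

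RNA came from pancreatic islets of male C57BL/6 mice that carried a Brsk2 transgene for over-expression, in a library titled Line20, or were wild type. Brsk2 belongs to the kinases related to AMPK. Mice of both genotypes drank water with doxycycline for 4 days at 8 to 10 weeks of age, and the labelled age was 10 to 12 weeks. The sources used here do not name the promoter of the transgene or say how many mice went into a library. With 1 library in each group the spread between animals is unknown, and no difference below was checked in replicates.

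In eukaryotes, eIF2 carries the initiator tRNA to the small ribosomal subunit, eIF3 acts as a scaffold on that subunit, and eIF4F binds the mRNA cap and unwinds the leader. eIF1, eIF1A, eIF5 and eIF5B govern start codon choice and subunit joining, after which eEF1A delivers aminoacyl-tRNAs and eEF2 translocates the ribosome. Beta cells translate insulin mRNA in bulk, and much of their control of protein synthesis is known to act on phosphorylation of these factors, which mRNA counts do not show.

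Reads counted in genes came to 16832312 in the transgenic library and 20389499 in the wild-type library. Brsk2 had 1609 reads in the transgenic library and 732 in the wild-type library, a ratio of 2.59 in CPM (reads relative to the TMM-scaled size of the library). All ratios are transgenic over wild type, and ranges in brackets are exact 95% intervals that cover counting error only. The 7 islet hormone genes of the marker list all had reads in both libraries and took 23.4% of transgenic against 27.3% of wild-type reads. The 23 listed acinar markers took 6.57% of transgenic and 1.43% of wild-type reads, and all 23 were at least 1.5-fold higher. In bulk RNA, fewer cells of a type and less RNA per cell cannot be told apart.

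No factor gene was at least 1.5-fold higher or lower in the transgenic islets with an interval that excluded 1. Over all 17709 genes, 7.77% were higher and 5.89% lower by that rule. Among the 5769 protein-coding genes whose 2 libraries summed to 1000 reads or more, a set closer to the factors in depth, the shares were 2.48% and 4.61%. Ratios of the 63 factors ran from 0.655 for Eif4ebp3, with 10 transgenic and 18 wild-type reads and an interval that held 1 (lower bound 0.270), to 1.41 [1.20, 1.66] for Eef1akmt2. Their median log2 ratio was -0.04, against 0.01 over all measured genes and -0.06 over that deeper set. None of the 63 was among the 108 genes in the authors' deposited table of differences, whose absolute log2 fold changes began at 1.57.

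Together the 63 factors took 1.21% [1.21, 1.22] of transgenic reads and 1.18% [1.18, 1.19] of wild-type reads. In scaled CPM the ratio of their sums was 1.00 [0.994, 1.01]. Eef1a1 and Eef2 made up 39.0% of the factor reads in the transgenic library and 37.8% in the wild-type library. When the denominator was protein-coding reads without hormone genes, the order turned round, to 1.62% in transgenic and 1.66% in wild-type islets. The order of the 2 shares therefore followed the denominator, whose hormone and acinar parts differed between the libraries as given above.

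To show where these genes start, 65 bases of promoter are printed for 6 members (50 before the annotated start and 15 from it; RefSeq, GRCm38.p6). The RefSeq promoter table held 62 starts for 48 of the 63 members. Capitals mark letters that matched 1 of 5 searched motifs. These were the TATA box TATAAA, the cAMP response element TGACGTCA, the ETS motif CCGGAAGT and the E-box CACGTG, on both strands of the 300-base window, and the terminal oligopyrimidine (TOP) motif. The TOP motif, through which mTORC1 controls translation of many translation machinery mRNAs, was searched on the sense strand as a C at the start base followed by at least 4 pyrimidines. No 2 of the marked motifs overlapped in the printed stretches.

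Eef2, plus strand, chr10:81176581-81176645, with an E-box, a TATA box and a cAMP response element:
Eef2: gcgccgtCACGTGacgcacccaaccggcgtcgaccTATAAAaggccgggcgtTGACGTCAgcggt
Eif1b, plus strand, chr9:120492556-120492620, the initiation factor with the highest ratio, with an E-box:
Eif1b: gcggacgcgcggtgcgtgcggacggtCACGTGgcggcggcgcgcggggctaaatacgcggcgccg
Eef1b2, plus strand, chr1:63176781-63176845, with an ETS motif just past the start:
Eef1b2: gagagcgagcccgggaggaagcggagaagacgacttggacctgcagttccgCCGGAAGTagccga
Eif3f, plus strand, chr7:108934365-108934429, with a TOP motif:
Eif3f: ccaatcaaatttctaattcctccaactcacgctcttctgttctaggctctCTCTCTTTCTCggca
Eif2s3x, minus strand, chrX:94212637-94212701, with a TOP motif:
Eif2s3x: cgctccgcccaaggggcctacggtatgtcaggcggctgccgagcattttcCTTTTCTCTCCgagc
Eef1a1, minus strand, chr9:78481710-78481774, the most abundant member, with no match in this stretch:
Eef1a1: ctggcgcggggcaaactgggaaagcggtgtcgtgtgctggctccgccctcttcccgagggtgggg

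The E-box was found at 13 of the 48 members (27.1%), against 13.1% of 4617 protein-coding genes with at least 1000 reads and 8.09% of all 27025 genes in the promoter table. Members with an E-box had a median log2 ratio of -0.02 and the other 35 one of -0.04, and their ratios ran from 0.840 to 1.39. The ETS motif was found at 8 members (16.7%), against 10.6% of those 4617 genes. Members with the ETS motif had a median log2 ratio of 0.01. The TOP motif at an annotated start was found at 2 members, Eif2s3x and Eif3f (4.17%), against 3.03%, the TATA box at 5 (10.4%, against 8.40%) and the cAMP response element at Eef2 alone (2.08%, against 4.31%). A match describes letters in this window, and annotated starts can lie some bases from the true ones. The TOP search needs a C at exactly the annotated base, so it can miss motifs where the start is off. Its 2 matches therefore do not show how many members have a TOP motif.

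Per gene length the order of the factors was nearly the same in both libraries. Eef1a1 (chromosome 9, 78478449 to 78489151) stood at 2730 TPM in transgenic and 2503 TPM in wild-type islets, where TPM is reads per gene length scaled to one total in each library. Eef2 (chromosome 10, 81176631 to 81182498) followed at 913 and 1001 TPM, then the start codon factor Eif1 at 366 and 318 TPM. The helicase Eif4a2 had 297 TPM in transgenic and 278 TPM in wild-type islets. The lowest member was Eif3j2, a second gene for the eIF3j subunit, at 1.14 TPM in transgenic and 1.06 TPM in wild-type islets. Of the 63 members, 15 had at least 100 TPM in both libraries, and across the 63 genes the Spearman correlation of TPM between the libraries was 0.989, a description of genes within 2 libraries.

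**Figure D1:**
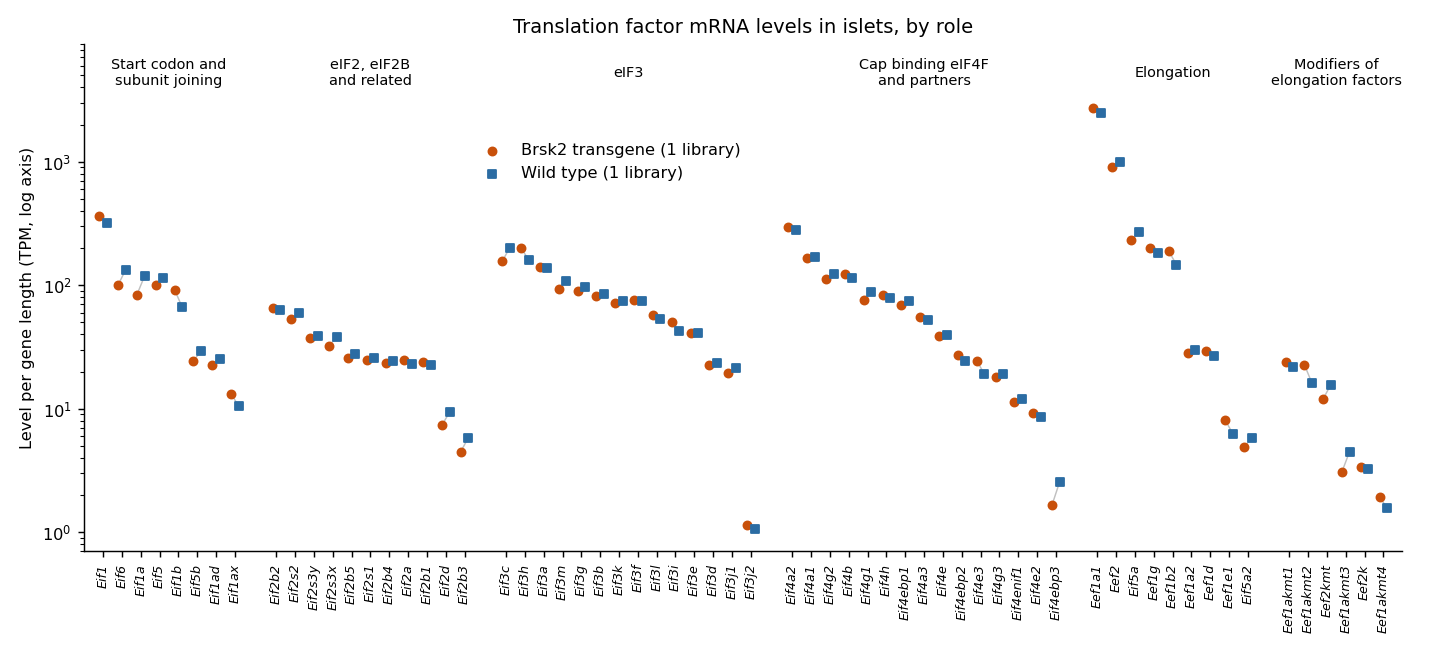
Level of each of the 63 factor genes per gene length (TPM, log axis), grouped by role and ordered by wild-type level, in the transgenic library (circles) and the wild-type library (squares), 1 library each. Eef1a1, at 2730 and 2503 TPM, and Eef2, at 913 and 1001 TPM, stand above all other factors in both libraries.

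Among genes past 1000 reads the factors' ratios had the narrower middle range. The interquartile range of the log2 ratio was 0.23 over the 51 factors with at least 1000 reads and 0.33 over the 5769 protein-coding genes past the same minimum, which include the factors. The factors were also the deeper set, with a median of 3607 reads over both libraries against 2261, and depth beyond the minimum was not matched. Of those 51 factors, 44 (86.3%) were less than 25% higher or 20% lower, against 76.1% of the protein-coding genes. By the looser rule of at least 25% higher or 20% lower with an interval excluding 1, 3 of the 51 were higher (5.88%, against 7.85%) and 4 were lower (7.84%, against 16.1%). By counting error alone, 15 of the 51 had an interval wholly above 1 (29.4%, against 22.0%) and 15 wholly below it (29.4%, against 41.4%). Without replicates, it was not tested whether ratios of this size exceed the spread between animals.

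**Figure D2:**
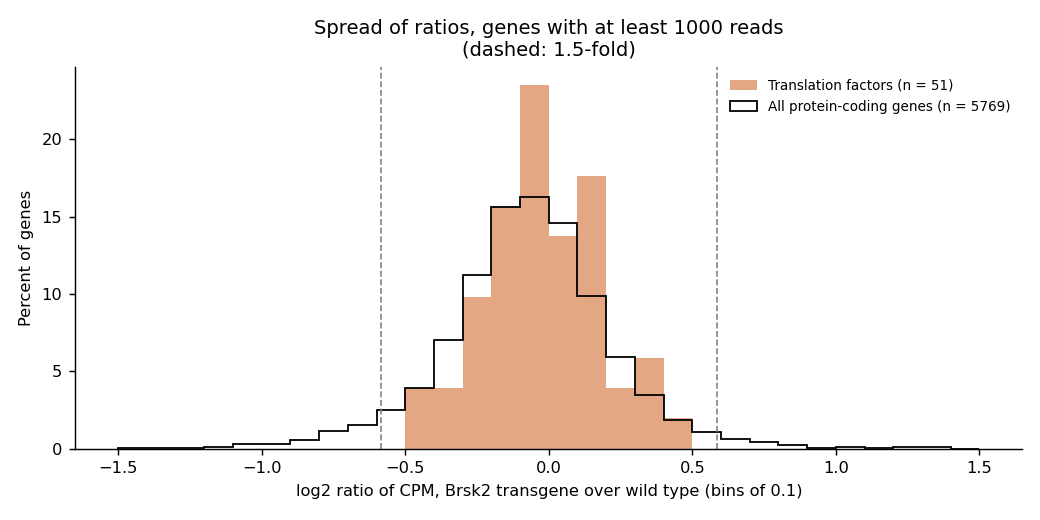
Distribution of the log2 ratio (transgenic over wild type, bins of 0.1, as percent of genes) for the 51 factors (filled) and the 5769 protein-coding genes (line) with at least 1000 reads; 45 of the protein-coding genes lie outside the plotted range of -1.5 to 1.5. No factor lies past the dashed 1.5-fold lines.

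Over all 63 factors, 6 were higher by at least 25% and 7 were lower by at least 20%, each with an interval without 1. These are 9.52% and 11.1% of the factors, against 13.2% and 12.4% of all 17709 genes and 7.85% and 16.1% of the 5769 deeper ones. The share that was higher thus lay below that of all genes and above that of the deeper ones. The share that was lower lay below both. Neither set was matched to the 63 factors in depth. The higher ones were Eef1akmt2, Eif1b, Eef1e1, Eef1b2, Eif4e3 and Eif1ax, and the lower ones Eef1akmt3, Eif1a, Eif6, Eef2kmt, Eif2b3, Eif3c and Eif2d. After centring by GC content and gene length, a setting added after the data were seen, Eif1ax, Eif4e3 and Eif2d no longer passed. With library totals as the scaling Eif2d was lost and Eif3h was gained.

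**Figure D3:**
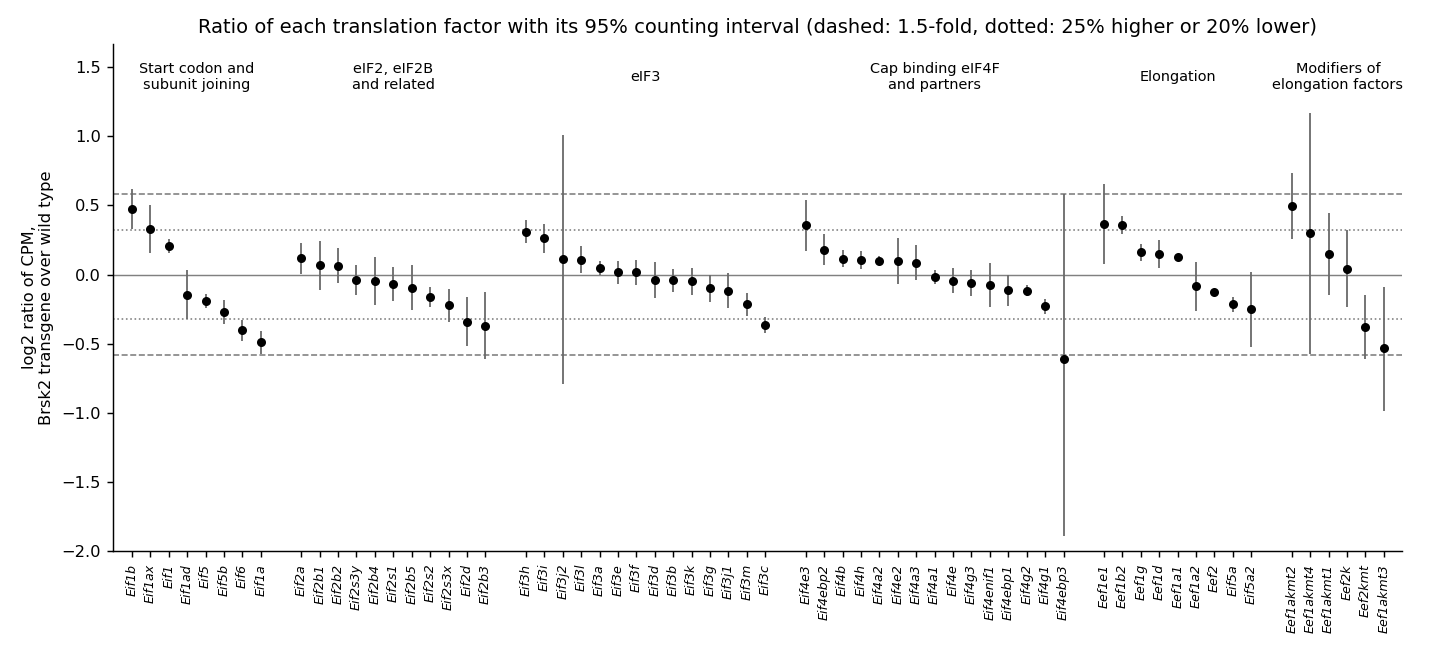
log2 ratio of CPM (transgenic over wild type) of each of the 63 factors, grouped by role and ordered by ratio; points are ratios from 1 library per group and bars their exact 95% counting intervals. Only Eif4ebp3 lies past a dashed 1.5-fold line, and its interval holds 1.

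The start codon and subunit joining factors lay on both sides of 1. Of 8 members, 3 had intervals above 1, 4 below 1 and 1 held it, and the median log2 ratio was -0.17. Intervals lay above 1 for 19.4% and below 1 for 22.1% of all 17709 genes, and for 22.0% and 41.4% of the 5769 deeper ones, so such calls are common and a group of this size says little by its count. Eif1a, one of the genes for the scanning factor eIF1A, had 1954 reads (115 CPM) in the transgenic and 3237 reads (161 CPM) in the wild-type library, a ratio of 0.712 [0.673, 0.753]. Eif1ax, the X-linked gene for eIF1A, had 561 reads (32.9 CPM) in transgenic and 526 reads (26.1 CPM) in wild-type islets, a ratio of 1.26 [1.11, 1.42]. The 2 genes of this pair thus lay on opposite sides of 1.

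Eif6 (chromosome 2, 155819832 to 155826925) encodes the factor that keeps the large ribosomal subunit from joining too early. It had 2198 reads (129 CPM) in the transgenic and 3428 reads (170 CPM) in the wild-type library, a ratio of 0.756 [0.716, 0.798]. Eif5b, the GTPase of subunit joining, was at 112 CPM in transgenic and 136 CPM in wild-type islets (0.828 [0.781, 0.878]). Eif5, the GTPase-activating partner of eIF2, was at 325 and 372 CPM (0.875 [0.845, 0.906]). Eif6, Eif5b and Eif5 were thus below 1, while both eIF1 genes and Eif1ax were above it. This grouping was made with the values seen, and 3512 of the 5769 deeper genes were below 1. Eif1, which guards start codon choice, had 6212 reads (364 CPM) in transgenic and 6339 reads (315 CPM) in wild-type islets, a ratio of 1.16 [1.12, 1.20]. Its paralog Eif1b had 837 reads (49.1 CPM) in the transgenic and 710 reads (35.3 CPM) in the wild-type library, a ratio of 1.39 [1.26, 1.54]. Eif1ad, a gene with an eIF1A-like domain, stood at 0.905 with an interval that held 1 [0.798, 1.02].

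The subunits of eIF2 lay at or below 1. Eif2s2, the beta subunit, was at 171 CPM in transgenic and 192 CPM in wild-type islets (0.893 [0.851, 0.938]), and the alpha subunit Eif2s1, the site of the stress-regulated phosphorylation, at 57.8 and 60.6 CPM (0.954 [0.876, 1.04]). The gamma subunit is encoded on both sex chromosomes of the mouse. Eif2s3x had 999 transgenic and 1373 wild-type reads (0.858 [0.790, 0.932]) and Eif2s3y 1262 and 1531 (0.972 [0.902, 1.05]). The 4 genes summed had a ratio of 0.912 [0.882, 0.943]. Among the 5769 deeper genes 3512 were below 1, and 41.4% of the 5769 had an interval wholly below it.

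The 5 genes of eIF2B, the exchange factor that recharges eIF2 with GTP, summed to a ratio of 0.980 [0.932, 1.03]. Eif2b3, the gamma subunit, stood lowest, with 237 reads (13.9 CPM) in transgenic and 361 reads (17.9 CPM) in wild-type islets, a ratio of 0.774 [0.654, 0.915]. The most abundant member of the eIF2 group per length was Eif2b2, the beta subunit, at 65.2 TPM in transgenic and 62.5 TPM in wild-type islets. Eif2b1, Eif2b2, Eif2b4 and Eif2b5 lay between 0.937 and 1.05 with intervals that held 1. Eif2d, a factor outside eIF2 that can deliver tRNA without GTP, had 439 reads (25.7 CPM) in transgenic and 656 reads (32.6 CPM) in wild-type islets (0.789 [0.698, 0.892]). Eif2a, another factor apart from the eIF2 complex, had a ratio of 1.08 [1.00, 1.17].

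Most eIF3 subunits kept ratios close to 1, with Eif3c and Eif3h at the ends. The 12 subunits without Eif3j1 and Eif3j2 summed to 0.975 [0.959, 0.990] and ran from 0.777 to 1.24. As shares of all reads these 12 took 0.168% [0.166, 0.170] in transgenic and 0.167% [0.166, 0.169] in wild-type islets. Whether their sum lay below 1 thus depended on the scaling. Eif3c (chromosome 7, 126546455 to 126566411), a core subunit, had 4435 reads (260 CPM) in transgenic and 6733 reads (335 CPM) in wild-type islets, a ratio of 0.777 [0.748, 0.807]. Eif3m followed at 0.861 [0.812, 0.913]. At the other end Eif3h (chromosome 15, 51786558 to 51865523) had 2599 reads (152 CPM) in transgenic and 2471 reads (123 CPM) in wild-type islets, a ratio of 1.24 [1.17, 1.31], and Eif3i 1520 and 1495 reads (89.1 and 74.3 CPM), a ratio of 1.20 [1.12, 1.29]. The intervals of Eif3c and Eif3h do not overlap. These subunits were picked as the lowest and highest of the 12, so that gap says little about the complex. Among the 5769 deeper genes, 22.0% had intervals above 1 and 41.4% below it. Eif3l stood at 1.08 [1.01, 1.15] and Eif3g at 0.933 with an upper bound that rounds to 1.00. The intervals of Eif3a, Eif3b, Eif3d, Eif3e, Eif3f, Eif3k, Eif3j1 and Eif3j2 held 1.

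The cap-binding group summed to a ratio of 0.999 [0.987, 1.01] over 15 genes. Eif4e, the cap-binding protein, had 1867 reads in transgenic and 2271 reads in wild-type islets, a ratio of 0.970 with an interval that held 1 [0.912, 1.03]. Eif4e3, a cap-binding relative, had 497 reads (29.1 CPM) in the transgenic and 458 reads (22.8 CPM) in the wild-type library, a ratio of 1.28 [1.12, 1.46]. Eif4e2, which competes for the cap as a repressor, had 557 transgenic and 613 wild-type reads (1.07 [0.954, 1.20]). The scaffold Eif4g1 had 4448 reads (261 CPM) in transgenic and 6150 reads (306 CPM) in wild-type islets (0.853 [0.821, 0.887]). Eif4g2, a relative that lacks the eIF4E site, was at 544 CPM in transgenic and 590 CPM in wild-type islets (0.922 [0.898, 0.948]), and Eif4g3 at 94.7 and 99.0 CPM (0.957 [0.896, 1.02]). All the scaffold genes were thus under 1, although the interval of Eif4g3 held it. So were 3512 of the 5769 deeper genes, and 41.4% of the 5769 had an interval wholly below 1.

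Among the helicases, Eif4a2 had 12810 reads (751 CPM) in transgenic and 14091 reads (700 CPM) in wild-type islets, a ratio of 1.07 [1.05, 1.10]. Eif4a1, its close paralog, had 5852 transgenic and 6977 wild-type reads, or 343 and 347 CPM (0.989 [0.955, 1.02]). The exon junction helicase Eif4a3 stood at 1.06 [0.971, 1.16]. The helicase cofactors Eif4b and Eif4h had ratios of 1.08 [1.04, 1.13] and 1.07 [1.03, 1.12]. The processed pseudogene row Eif4a-ps4 had 940 transgenic and 1336 wild-type reads (0.830 [0.763, 0.903]), so that counting may have placed reads of the eIF4A genes there.

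The eIF4E-binding proteins block the meeting of eIF4E and eIF4G until mTORC1 phosphorylates them. Eif4ebp1 had 1218 reads (71.4 CPM) in the transgenic and 1556 reads (77.3 CPM) in the wild-type library, a ratio of 0.923 [0.856, 0.996]. Eif4ebp2 had 1276 reads (74.8 CPM) in transgenic and 1328 reads (66.0 CPM) in wild-type islets, a ratio of 1.13 [1.05, 1.22]. Eif4enif1, the shuttling protein that brings eIF4E into the nucleus, stood at 0.949 [0.850, 1.06].

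In elongation, the genes of eEF1A1 and its exchange complex lay above 1 and eEF2 and eIF5A below it. Eef1a1 had 55011 reads (3225 CPM) in transgenic and 59347 reads (2950 CPM) in wild-type islets, a ratio of 1.09 [1.08, 1.11]. Eef1b2, a nucleotide exchange subunit, had 3858 reads (226 CPM) in transgenic and 3544 reads (176 CPM) in wild-type islets, a ratio of 1.28 [1.23, 1.34]. The other exchange subunit Eef1d stood at 1.11 [1.03, 1.19] and the structural subunit Eef1g at 1.12 [1.07, 1.17]. These 4 genes, a set without Eef1a2 that is not one of the role groups, summed to a ratio of 1.10 [1.09, 1.12]. All 9 genes of the elongation group summed to 1.03 [1.02, 1.04]. Among the 5769 deeper genes, intervals lay above 1 for 22.0% and below 1 for 41.4%, so ratios on both sides of 1 are common.

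Eef2, the translocase, had 24523 reads (1438 CPM) in the transgenic and 31636 reads (1572 CPM) in the wild-type library, a ratio of 0.914 [0.899, 0.930]. Eif5a, the hypusine-bearing factor that helps ribosomes through proline runs, had 4454 reads (261 CPM) in transgenic and 6102 reads (303 CPM) in wild-type islets (0.861 [0.828, 0.895]). Its paralog Eif5a2 had 198 transgenic and 278 wild-type reads (0.840 [0.696, 1.01]). Eef1e1 had 212 reads (12.4 CPM) in transgenic and 194 reads (9.64 CPM) in wild-type islets, a ratio of 1.29 [1.06, 1.57]. Its product is also known as AIMP3, a scaffold protein of the tRNA synthetase complex. Eef1a2, the form of muscle and neurons, had 477 transgenic and 597 wild-type reads and a ratio of 0.942 [0.834, 1.06].

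The enzymes that modify elongation factors were few in reads and held both the highest and, among members with at least 100 reads, the lowest ratio. Eef1akmt2, a lysine methyltransferase of eEF1A, had 324 reads (19.0 CPM) in transgenic and 271 reads (13.5 CPM) in wild-type islets, the ratio of 1.41 given above. Eef1akmt3 had 68 reads (3.99 CPM) in the transgenic and 116 reads (5.77 CPM) in the wild-type library, a ratio of 0.691 [0.505, 0.941]. Eef2kmt, which methylates eEF2, had 260 reads (15.2 CPM) in transgenic and 398 reads (19.8 CPM) in wild-type islets (0.770 [0.656, 0.903]). Eef2k, the kinase that inactivates eEF2, was at 11.8 and 11.4 CPM (a ratio of 1.03). Its interval held 1, and those of Eef1akmt1 and Eef1akmt4 also held 1.

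Shares within groups of paralogs do not depend on how the libraries are scaled. Eif1ax took 22.3% [20.7, 24.0] of the summed Eif1a and Eif1ax reads in transgenic islets and 14.0% [12.9, 15.1] in wild-type islets, the widest gap of the 10 shares examined. Eif4e3 took 17.0% [15.7, 18.4] of the eIF4E family reads in the transgenic and 13.7% [12.6, 14.9] in the wild-type library. Eif4ebp1 took 48.6% [46.7, 50.6] of the binding protein reads in transgenic and 53.6% [51.8, 55.4] in wild-type islets, and nearly all the rest was Eif4ebp2.

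Gaps of about 2 percentage points were found for 3 further shares. Eif1b took 11.9% of the eIF1 reads in transgenic and 10.1% in wild-type islets, Eif4a2 68.6% and 66.9% of the Eif4a1 and Eif4a2 reads, and Eif4g3 26.6% and 24.5% of the Eif4g1 and Eif4g3 reads. Their intervals did not overlap. How often such gaps occur among other gene pairs was not computed. Ratio intervals lay wholly above 1 for 22.0% and below 1 for 41.4% of the 5769 deeper genes. Differences past counting error were thus common at this depth. For Eef1a2 (0.860% in transgenic and 0.996% in wild-type islets), Eif5a2 (4.26% and 4.36%), Eif2s3y (55.8% and 52.7%) and Eif4g2 (60.5% and 59.3%) the intervals overlapped. The shares count reads without regard to gene length, and the counting of reads that fit several close paralogs is unknown.

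**Figure D4:**
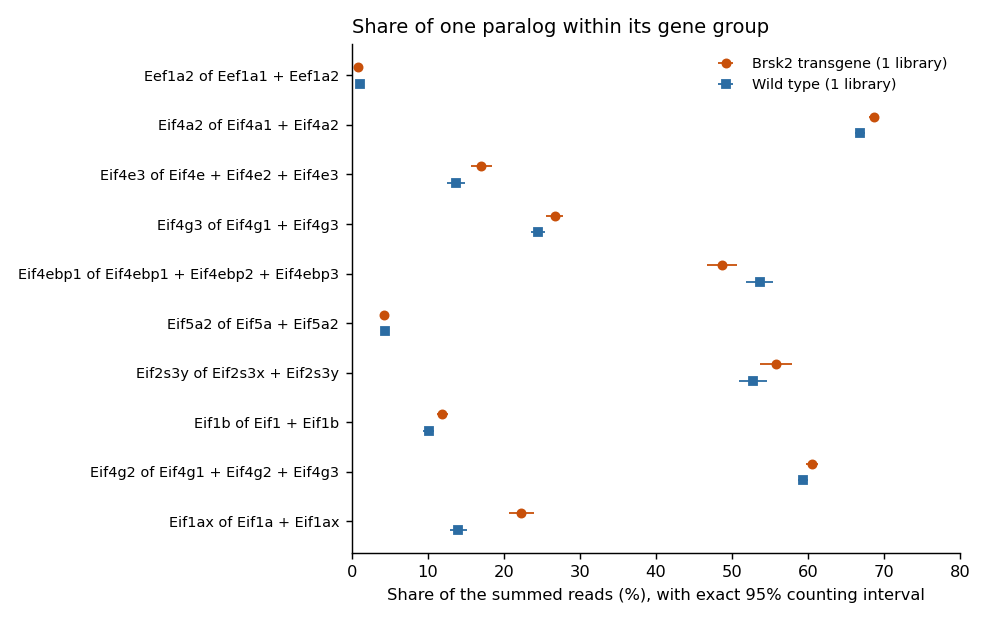
Share of 1 paralog in the summed reads of its gene group (percent, with exact 95% counting intervals) in the transgenic library (circles, upper) and the wild-type library (squares, lower). The widest gap is that of Eif1ax, at 22.3% in transgenic and 14.0% in wild-type islets.

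Of 8 lists of genes that act with the factors, 3 held a gene at least 1.5-fold different with an interval that excluded 1. By that rule 7.77% of all 17709 genes were higher and 5.89% lower. Among the 5769 deeper genes the shares were smaller, at 2.48% and 4.61%. The lists are short and were not matched for depth. Their counts therefore do not show that they held fewer or more such genes than other genes. The list of transcripts known to respond to eIF2 phosphorylation had the lowest median log2 ratio, -0.25, with 3 of 12 lower and 1 higher. The lower ones were the transcription factors Atf5 (1344 transgenic and 3117 wild-type reads, 0.509) and Atf3 (575 and 1147 reads, 0.591), and Ddit4, an inhibitor of mTORC1 signalling (730 and 1586 reads, 0.543). The cystine transporter Slc7a11, with 113 and 69 reads, was higher (1.93 [1.42, 2.65]). Atf4, whose translation is known to respond to eIF2 phosphorylation, had 7042 transgenic and 8158 wild-type reads and a ratio of 1.02 [0.986, 1.05]. The most abundant per length, the stress factor Ddit3 (CHOP), had 469 TPM in transgenic and 558 TPM in wild-type islets (0.843 [0.816, 0.870]).

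None of the 9 eIF2 kinases and phosphatase subunits was called, and the median log2 ratio was -0.03. The lowest was Eif2ak3 (PERK), the eIF2 kinase of the endoplasmic reticulum, with 1853 reads in transgenic and 3120 in wild-type islets, a ratio of 0.700 [0.661, 0.742]. Eif2ak1, Eif2ak2 and Eif2ak4 stood at 1.10, 0.979 and 0.814. The most abundant of this list per length was the phosphatase catalytic subunit Ppp1ca, at 234 TPM in transgenic and 240.0 TPM in wild-type islets, with a ratio of 0.978.

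No gene of mTORC1 and eIF4E-binding protein control was called among 17 (median -0.09). The most abundant per length, the GTPase Rraga, had 104 TPM in transgenic and 111 TPM in wild-type islets (0.937). The mTORC1 activator Rheb had 3129 reads in transgenic and 4879 in wild-type islets, a ratio of 0.756 [0.723, 0.791]. No gene of the 14 mRNA-binding and cap partners was called either (median -0.07). The most abundant by mean TPM, Paip2, an inhibitor of the poly(A)-binding protein, had 164 TPM in transgenic and 151 TPM in wild-type islets (1.09 [1.04, 1.14]). The RNA helicase Ddx3x had 5304 transgenic and 9079 wild-type reads (0.689 [0.666, 0.713]), and the poly(A)-binding protein Pabpc1 stood at 0.816 [0.783, 0.850].

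Of 6 termination and recycling genes the release factor Gspt2 was higher (231 transgenic and 168 wild-type reads, 1.62 [1.32, 1.99]) and none lower, with a median of -0.12. The most abundant per length, the release factor Etf1, stood at 0.867 [0.821, 0.916]. Of 9 genes that modify eIF5A and eEF2, Dnajc24, which acts in diphthamide synthesis on eEF2, was lower, with 420 transgenic and 914 wild-type reads (0.542 [0.482, 0.609]), and none higher; the median was -0.01. Dhps and Dohh, the enzymes that make hypusine on eIF5A, stood at 0.793 [0.687, 0.914] and 1.23 [1.05, 1.44]. None of the 10 mitochondrial translation factors (median 0.02) and none of the 4 selenoprotein elongation genes (median 0.01) was called. The most abundant of these per length were the mitochondrial elongation factor Tufm (1.07 [0.934, 1.23]) and the selenophosphate synthetase Sephs2 (0.957 [0.837, 1.09]).

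**Figure D5:**
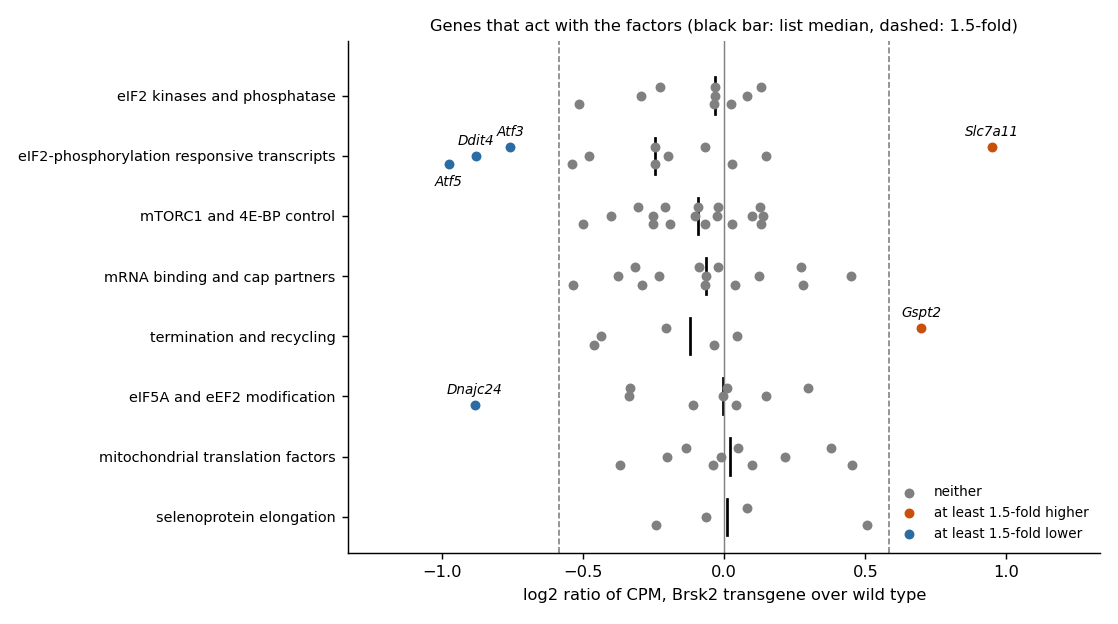
log2 ratio of CPM (transgenic over wild type, 1 library per group) of each gene in 8 lists of genes that act with the factors; black bars are list medians and dashed lines mark 1.5-fold. Labelled genes passed 1.5-fold with an interval that excluded 1, and 4 of those 6 lie on the lower side.

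Markers of other cells differed between the libraries beside these ratios. Besides the acinar markers, 4 of 6 fibroblast and mural markers passed 1.5-fold upward, as did 3 of 6 alpha cell markers, while 5 of 8 beta cell markers passed it downward. Also higher were 2 of 4 measured B, T and plasma cell markers (Ighm at 4.60 and Jchain at 11.7 times), 2 of 6 ductal markers (Spp1 at 1.77 and Muc1 at 2.24 times), Ppy of the delta and gamma list (1.65 times) and Lyz2 of the macrophage list (1.84 times). None of 5 endothelial markers was called. Over all 17709 genes, 7.77% were higher and 5.89% lower by the 1.5-fold rule. Members of the same lists also went the other way or stayed near 1. Cd79a stood at 0.768 [0.688, 0.857], Ms4a1 at 0.462 with an interval that held 1, and Cd68 at 0.677 [0.501, 0.907]. The ductal marker Krt7 stood at 0.975, and the beta cell markers Pdx1 and Nkx6-1 at 1.05 and 1.37 [1.31, 1.43]. The fibroblast and mural markers took 0.00673% of transgenic and 0.00329% of wild-type reads, and the alpha cell markers 3.17% and 1.95%. None of the acinar, fibroblast, alpha or beta markers was at 0 in either library. With the hormone genes and acinar markers left out of the scaling, the number of factors past 1.5-fold was still 0 in each direction and their median log2 ratio was -0.04. The part of cell composition in single factor ratios was not tested.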

How the data were processed

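Total RNA of isolated islets was extracted with Trizol and made into TruSeq libraries, per the labels' protocols. The authors deposited raw read counts per Ensembl gene with a gene length and coordinates. The submitters' processing notes name DESeq2 1.10.1, without a role. The aligner, counter, genome build and strandedness were not given in the sources used here. Thus overlapping and antisense genes cannot be separated. Of the 63 members 60 had the start and end of GENCODE M21 (GRCm38), whose coordinates are treated as the table's. The authors' deposited table gives log2 fold changes of listed genes.

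Counts were scaled by TMM (edgeR 4.0.16, R 4.3.3; factors 1.01 transgenic, 0.987 wild type). A read was worth 0.0586 and 0.0497 CPM. Exact 95% Clopper-Pearson intervals (SciPy 1.17.1) cover counting error only. They treat reads as independent. Reads lacking molecular identifiers are not independent molecules, so the intervals may be too narrow even for counting error. With 1 library per group no test between groups was made. TPM used the table's gene lengths, which may exceed those of the transcripts expressed. The steps were tested on simulated counts with counting error only. All 40 genes planted 2-fold higher and all 40 planted 2-fold lower were called. Of those planted at 1.5-fold, the threshold itself, 18 of 40 were called in each direction. Of 17547 unchanged genes, 100 were called higher and 100 lower.

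A gene was called at 1.5-fold with an interval excluding 1. Members, lists, role groups and rules were chosen with earlier results of these data known. Named genes were all members past a fold rule, the most abundant and most different of each role group, and paralogs, and from each list the genes called and the most abundant one per length. Values of further members are given to describe each role group, outside that rule and with their values seen. Others named from the lists, and the printed promoters, were chosen after their values were seen. Alternatives were DESeq2 1.42.0 size factors, library totals, scaling without hormone and acinar genes, centring by length, read minimums, fold rules and denominators. Centring by GC content and length, a denominator without Eef1a1 and Eef2, and list counts under other scalings were added after the data were seen.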

Additional observations from a re-analysis of the deposited data

How the results depend on the processing

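The count of factors past 1.5-fold was 0 in both directions under DESeq2 size factors, library totals, scaling without hormone and acinar genes, centring by length or by GC content and length, both other read minimums, a 2-fold rule and a rule on the interval bound. At 25% higher or 20% lower it was 6 higher and 7 lower, as more genes qualify by construction. The median log2 ratio ran from -0.05 with DESeq2 size factors to -0.00 with library totals. Of protein-coding reads without hormone genes the factors took 1.62% in transgenic and 1.66% in wild-type islets; without acinar markers in the denominator they took 1.30% and 1.20%, and without Eef1a1 and Eef2 0.744% and 0.738%. These shares moved because numerator or denominator was changed. Library totals multiplied all ratios by 1.03, put 3 members outside their intervals (Eif4a2, Eef1a1 and Eef2) and took Eif4a1 across 1. DESeq2 size factors put no member outside its interval and took none across 1. In the main setting 18 members had an interval wholly above 1 and 18 wholly below it. These counts were 17 and 18 with DESeq2 size factors, and 19 and 16 with library totals. Counts in the 8 lists were the same under both scalings. Paralog shares do not depend on scaling. Leaving out a library was not possible with 1 per group. No paired analysis was possible because each group had 1 library. Depth limits 3 members with under 100 reads, Eif4ebp3, Eif3j2 and Eef1akmt4, whose intervals spanned more than 25% higher and 20% lower.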
